A study of Homo sapiens with 24 samples.

Results

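The kallikrein locus on chromosome 19 was examined in 24 FAIRE-seq peak lists, over the 150 kb window chr19:51300000-51450000 (hg19) that holds the 5 genes KLK1, KLK15, KLK3, KLK2 and KLK4, in that order. The members are the peaks of any list that overlap this window. There were 447 such peaks among 4683186 in all lists, and merging peaks that overlapped by at least 1 bp gave 52 of the 746786 merged regions of the series, named KR01 to KR52 here from left to right. The rule used position alone, so no measured value decided membership.

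FAIRE-seq isolates DNA that is not held by nucleosomes, by crosslinking cells with formaldehyde, shearing the chromatin and collecting what stays in the aqueous phase of a phenol extraction, so a peak marks accessible chromatin. The cells were LNCaP, an androgen-responsive human prostate cancer line, and RES-A, a subline derived from it that grows in the presence of enzalutamide. Both were held for 3 days in RPMI medium with 5% charcoal-stripped serum, with 10 µM enzalutamide added in this time for RES-A and not for LNCaP. They then received DMSO (the vehicle), 10 nM dihydrotestosterone (DHT, an androgen), 10 µM enzalutamide (ENZ, an antagonist of the androgen receptor) or both agents (DHT+ENZ). Treatment lasted 18 h, and each of the 8 groups had 3 libraries. RES-A is 1 derived line, and the history of drug exposure and the subline cannot be told apart in any comparison of RES-A with LNCaP.

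Kallikreins are secreted serine proteases. KLK3 encodes prostate-specific antigen (PSA), KLK2 encodes the closely related glandular kallikrein that can activate the PSA precursor, KLK4 encodes prostase, KLK15 encodes prostinogen and KLK1 encodes tissue kallikrein. KLK3 and KLK2 are textbook targets of the androgen receptor, a nuclear receptor that binds DNA once it holds an androgen, and for KLK3 an androgen response element just before the gene and a strong enhancer a few kilobases further upstream are both well known. ENZ competes with androgen for the receptor and hinders its movement to the nucleus and its binding to DNA.

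The promoters of KLK3 and KLK2 are shown because peaks next to the starts of both genes are compared with DHT further on. With all libraries, the differences that passed the main test lay next to the KLK2 start and not at the KLK3 start. Both are the 250 bases before the start of the gene on the plus strand, from RefSeq in the GRCh38.p14 build, whose coordinates are not those of the peaks. Capitals mark the letters AGAACA or GGAACA, either of which can form 1 arm of an androgen response element.
KLK3 promoter, chr19:50854665-50854914: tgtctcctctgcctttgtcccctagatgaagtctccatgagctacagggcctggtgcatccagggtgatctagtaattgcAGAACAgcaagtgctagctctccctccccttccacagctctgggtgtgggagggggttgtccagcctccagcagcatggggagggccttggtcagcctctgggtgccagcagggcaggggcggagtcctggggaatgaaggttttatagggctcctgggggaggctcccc
KLK2 promoter, chr19:50873189-50873438: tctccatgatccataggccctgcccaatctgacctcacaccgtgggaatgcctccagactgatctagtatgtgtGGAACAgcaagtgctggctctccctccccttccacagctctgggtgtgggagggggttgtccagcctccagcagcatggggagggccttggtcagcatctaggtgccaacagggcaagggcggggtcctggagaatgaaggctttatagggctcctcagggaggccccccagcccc

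AGAACA lay 170 to 165 bases before the KLK3 start, and GGAACA lay 176 to 171 bases before the KLK2 start. Both strands were searched in the 6 promoter windows found for 4 of the 5 genes. AGAACA was found in 12.388% of the 35116 RefSeq promoters of this length and GGAACA in 11.627%, so neither match is rare. GGAACA also occurred in 1 of the 2 KLK4 windows, 71 to 66 bases before that start, and neither motif occurred in the 2 KLK15 windows. The full palindrome, AGAACA and its reverse complement with 3 free bases between them, occurred in 1 promoter of the 35116 and in none of the 6 windows. A looser form of the androgen response element palindrome, with fewer fixed letters on each side of the same spacer, occurred in 0.327% of promoters and in none of the 6 windows. The KLK3 and KLK2 promoters were identical at 207 of 259 aligned columns (79.9%) and shared an unbroken run of 80 bases, 154 to 75 bases before the KLK3 start. That run is longer than the 50-bp reads, so reads from inside it could not be assigned to 1 of the genes by sequence alone, and how such reads were treated is not given in the sources used here.

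The values available for each peak were its pileup (the number of overlapping fragments at the summit, not scaled between libraries), its fold enrichment over the expected pileup and its −log10 p. Pileup follows depth, so each peak was ranked by pileup within its own list, rank 1 being the highest. The rank score is log2(50000 / rank), set to 0 for ranks beyond 50000 and for libraries without a peak, so that 1 unit more is a rank number 2 times smaller. Lists held 73254 to 275774 peaks. The background recovered from the peak caller's values, a measure of relative depth, ran from 0.406 to 5.987 reads per base, with a median of 4.12 in LNCaP and 2.76 in RES-A. LNCaP ENZ replicate 1 (0.406) and LNCaP DHT replicate 1 (0.739) were much shallower than the rest and had the fewest peaks, 73254 and 82224, and results that turn on them are given with and without them.

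Between 9 and 23 peaks per list fell in the window. Of the 52 regions, 8 had a peak in all 24 lists, 7 more had one in at least 12 lists, 18 in 2 to 11 lists and 19 in 1 list. The share present in all lists was 15.385%, against 3.943% of all merged regions. Over the 8 regions in all lists the pileup rank ran from 499.5 to 47274 with a median of 4987.5, and fold enrichment ran from 4.44 to 18.96 with a median of 9.71. The longest stretch without a peak in any list was 29851 bp (chr19:51308715-51338565). By general knowledge of the hg19 gene models, which were not among the files used here, KLK1 and KLK15 lie in or next to that stretch, and the placements of regions relative to genes given below have the same source.

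**Figure D1:**
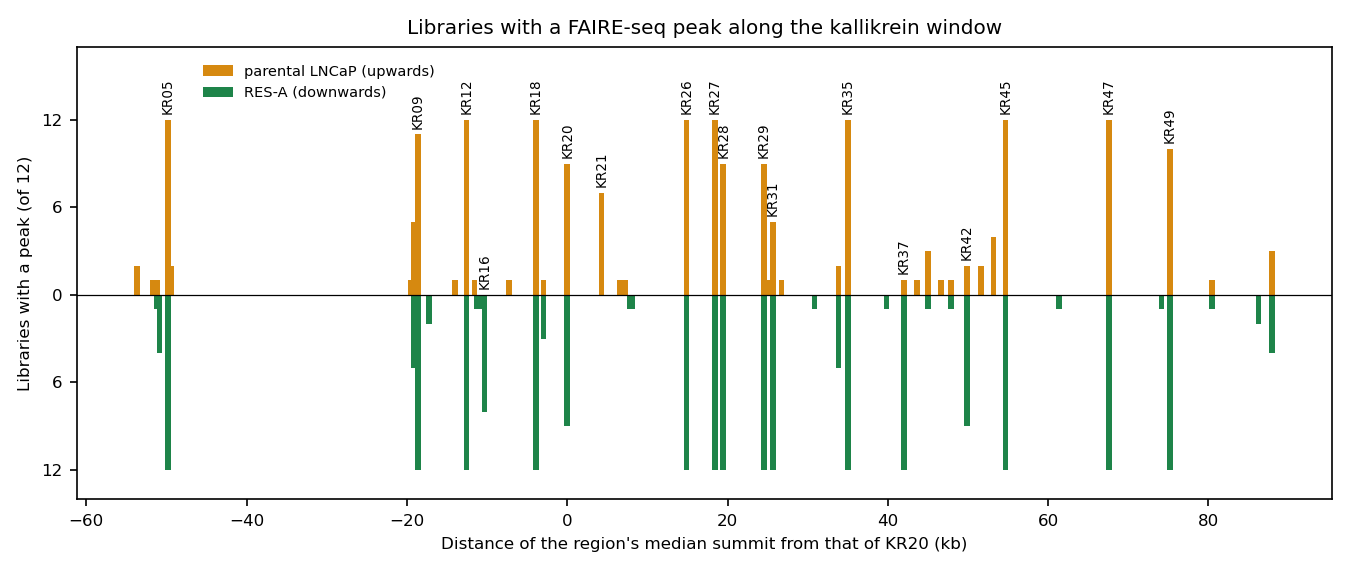
Bars give the number of libraries with a peak in each of the 52 regions, LNCaP upwards and RES-A downwards (of 12 each), against the distance in kb of the region's median summit from that of KR20 at the KLK3 start. KR05, KR12, KR18, KR26, KR27, KR35, KR45 and KR47 reached 12 in both sublines, while KR37 and KR16 were found mostly or wholly in RES-A and KR21 in LNCaP alone.

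With DHT against DMSO, the peak just before the KLK2 start (KR27) rose in both sublines and a weaker peak inside KLK2 (KR28) rose in RES-A on the rank score. The enhancers upstream of KLK3 and KLK2 (KR18 and KR26) had a peak in every list and did not pass the same test.

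The upstream enhancer and the start of KLK3 lay in KR18 (chr19:51353818-51354485) and KR20 (chr19:51357862-51358198), whose summits were 3919 bp apart. KR18, the enhancer, was present in all 24 lists and stood at rank 7984 or better in 23 of them. In LNCaP its pileup rank was 5741, 2344 and 1996 with DMSO, 2298, 628 and 1746 under DHT, 25212, 7204 and 1452 under ENZ alone, and 943, 914 and 1852 under DHT+ENZ. In RES-A it was 7056, 7984 and 5762 with DMSO, 6757, 5578 and 6432 under DHT, 2033, 5354 and 3438 under ENZ alone, and 3175, 788 and 1126 under DHT+ENZ. The RES-A libraries with DHT+ENZ and those with ENZ alone all ranked KR18 higher than the RES-A DHT and DMSO libraries did. The ranks with DHT+ENZ and with ENZ alone overlapped. In LNCaP the DHT+ENZ libraries all ranked it higher than the DMSO libraries, other treatments overlapped, and the rank of 25212 belonged to the shallow ENZ library.

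KR18 did not pass the test for DHT against DMSO in LNCaP (difference in rank score 1.14, SE 0.770, limma adjusted p = 0.446) or in RES-A (0.140, SE 0.770, limma adjusted p = 1). For DHT+ENZ against DHT in RES-A the difference was 2.14 (SE 0.770, limma adjusted p = 0.122). Without both shallow LNCaP libraries, the same difference had an SE of 0.618 and a limma adjusted p of 0.0397.

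KR20, at the KLK3 start itself, was a much lower peak, found in 18 of 24 lists, 9 in each subline. In LNCaP it ranked 74034 and 39157 in the first 2 DMSO libraries and was absent from replicate 3, and with DHT it was absent from the shallow replicate 1 and ranked 21889 and 24714 in the others. With ENZ it was absent from the shallow replicate 1 and ranked 132499 and 57876, and with DHT+ENZ it ranked 61992, 42276 and 45080. In RES-A it ranked 93822 and 106164 with DMSO (absent from replicate 3), 26178, 75254 and 37264 with DHT, 98413 and 102626 with ENZ (absent from replicate 3), and 98898 and 119638 with DHT+ENZ (absent from replicate 1). Among the libraries that had the peak, DHT libraries ranked it above the DMSO libraries of the same subline, and in RES-A all 3 DHT libraries stood above every other RES-A library.

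The test on the rank score did not reach the threshold for KR20 with DHT against DMSO in LNCaP (0.619, SE 0.235, limma adjusted p = 0.113) or in RES-A (0.453, SE 0.235, limma adjusted p = 0.270). The score holds most RES-A libraries at 0, since their ranks lie beyond 50000. Without both shallow libraries the LNCaP difference was 0.987 (SE 0.185, limma adjusted p = 0.00186), and DHT+ENZ against DHT in LNCaP was −0.974 (SE 0.185, limma adjusted p = 0.00311), with 2 DHT libraries left in each comparison. KR20 was within rank 50000 in only 7 of the 24 libraries and had a score of 0 in the others. The SEs of its differences therefore rest largely on values set to 0, and its small p-values measure that as well.

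KR19 (chr19:51354997-51355190), a narrow region between the KLK3 enhancer and the KLK3 start, was chosen after its values were seen. It had a peak in all 3 RES-A DHT libraries, ranked 55367, 86026 and 58322 with a pileup of 26, 17 and 34, and in LNCaP DHT replicate 2, ranked 83528 with a pileup of 33. None of the other 20 lists had it, so all its peaks came from cells given DHT without ENZ. On the alternative scale of within-list percentile, which keeps all peaks and counts an absent peak as 0, KR19 was the 1 region of the 25 tested in the window that was called for DHT against DMSO and for DHT+ENZ against DHT in RES-A, where 4.07% and 1.48% of the 309320 regions were. It entered those tests through the DHT libraries alone, so the calls restate its presence and are no further support for it.

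The KLK2 side of the locus had the same layout, an upstream peak (KR26, chr19:51372470-51373165) and a peak just before the gene (KR27, chr19:51376264-51376678), with summits 3561 bp apart. A weaker region just inside the gene, KR28 (chr19:51377361-51377639), followed 1032 bp after KR27. All of the differences with DHT that passed the test on the rank score were in KR27 and KR28.

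KR26 was the highest-ranked peak of the window in 9 of the 24 lists, more often than any other region. In LNCaP it ranked 2009, 536 and 2830 with DMSO, 3512, 500 and 894 under DHT, 6406, 2265 and 1276 under ENZ alone, and 943, 670 and 1203 under DHT+ENZ. In RES-A it ranked 5243, 2896 and 1812 with DMSO, 2880, 7085 and 5000 under DHT, 2948, 2505 and 3438 under ENZ alone, and 4758, 1298 and 3132 under DHT+ENZ. In LNCaP the DHT+ENZ libraries all ranked KR26 above the ENZ libraries, and the other treatments overlapped within each subline. DHT against DMSO gave 0.319 in LNCaP (SE 0.738, limma adjusted p = 1), or 1.117 without both shallow libraries (SE 0.659, limma adjusted p = 0.358), and −0.630 in RES-A (SE 0.738, limma adjusted p = 0.845). With all libraries the intervals were wide, from −1.23 to 1.87 and from −2.18 to 0.922.

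KR27, just before the KLK2 start, was present in all 24 lists. In LNCaP its rank was 7612, 15924 and 8914 with DMSO, 6830, 3008 and 1180 under DHT, 25212, 15510 and 18405 under ENZ alone, and 8248, 5714 and 9554 under DHT+ENZ. In RES-A it was 5728, 6385 and 7916 with DMSO, 1134, 1692 and 3292 under DHT, 8138, 4274 and 5018 under ENZ alone, and 3006, 3042 and 5836 under DHT+ENZ. In both sublines all 3 DHT libraries ranked the peak above all 3 DMSO libraries.

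With DHT against DMSO, KR27 rose by 1.83 in LNCaP (SE 0.507, limma adjusted p = 0.0279) and by 1.84 in RES-A (SE 0.507, limma adjusted p = 0.0173). It was the 1 region called of 12 tested in the LNCaP comparison and 1 of 2 called in the RES-A comparison, where 9.59% and 15.0% of all 82147 regions tested passed. The difference between the sublines' DHT effects at KR27 was 0.0136 (95% interval −1.49 to 1.52), or −0.606 without both shallow libraries. The LNCaP call was lost without DMSO replicate 2 or 3 or DHT replicate 2 or 3, with differences of 1.18 to 2.45 and an adjusted p of up to 0.142 over all libraries left out in turn, and the RES-A call was lost without DMSO replicate 3 or DHT replicate 1 or 2, with an adjusted p of up to 0.102.

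The difference at KR27 passed on the rank score and not on fold enrichment or percentiles. Fold enrichment in LNCaP was 7.87, 7.14 and 6.54 with DMSO and 5.95, 7.73 and 7.58 with DHT, and in RES-A it was 10.05, 9.30 and 8.62 with DMSO and 10.13, 9.50 and 8.87 with DHT. Tested as log2 fold enrichment, the differences were −0.0249 and 0.0277, and neither passed. On the percentile scale they were 2.31 points in LNCaP and 2.23 in RES-A, and neither passed. With ranks by −log10 p no region of the window passed with DHT in either subline.

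KR28, the region inside KLK2, lay far lower in the lists. In LNCaP it ranked 84358, 121138 and 53439 with DMSO, 80012 and 67926 with DHT (absent from the shallow replicate 1), 79508 in 1 of 3 libraries with ENZ, and 55218, 101050 and 93139 with DHT+ENZ. In RES-A it ranked 52302, 78229 and 53682 with DMSO, 23636, 28646 and 31708 under DHT, 58194, 61162 and 69586 under ENZ alone, and 33706, 40789 and 34650 under DHT+ENZ. The 4 RES-A groups fell into an order in which DHT ranked it highest and DHT+ENZ next, neither overlapping any other group, while DMSO and ENZ overlapped.

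With DHT against DMSO in RES-A, KR28 rose by 0.847 (SE 0.0938, limma adjusted p = 4.08e-06). Only 6 of the 24 libraries, the RES-A ones with DHT or DHT+ENZ, ranked KR28 within 50000, and the other 18, RES-A DMSO included, were set to a score of 0. The SE of every KR28 difference therefore rests largely on values set to 0, and its small p measures that as well as the spread between libraries. KR28 entered the tests through those 6 libraries alone. Its DHT calls, including that between the sublines, restate which libraries ranked it within 50000 and are no further support. In LNCaP the difference was 0, because all 12 LNCaP libraries ranked KR28 beyond 50000 or lacked it and so had a score of 0. The difference between the sublines' DHT effects was 0.847 (SE 0.133, limma adjusted p = 0.000470), the 1 region called of 12 where 6.68% of all regions passed. On the percentile scale, which does not set low ranks to 0, that difference was 25.2 percentile points with a limma adjusted p of 1, and 2.001 points without both shallow libraries. The RES-A difference with DHT was 15.1 percentile points on that scale and did not pass (limma adjusted p = 1).

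**Figure D2:**
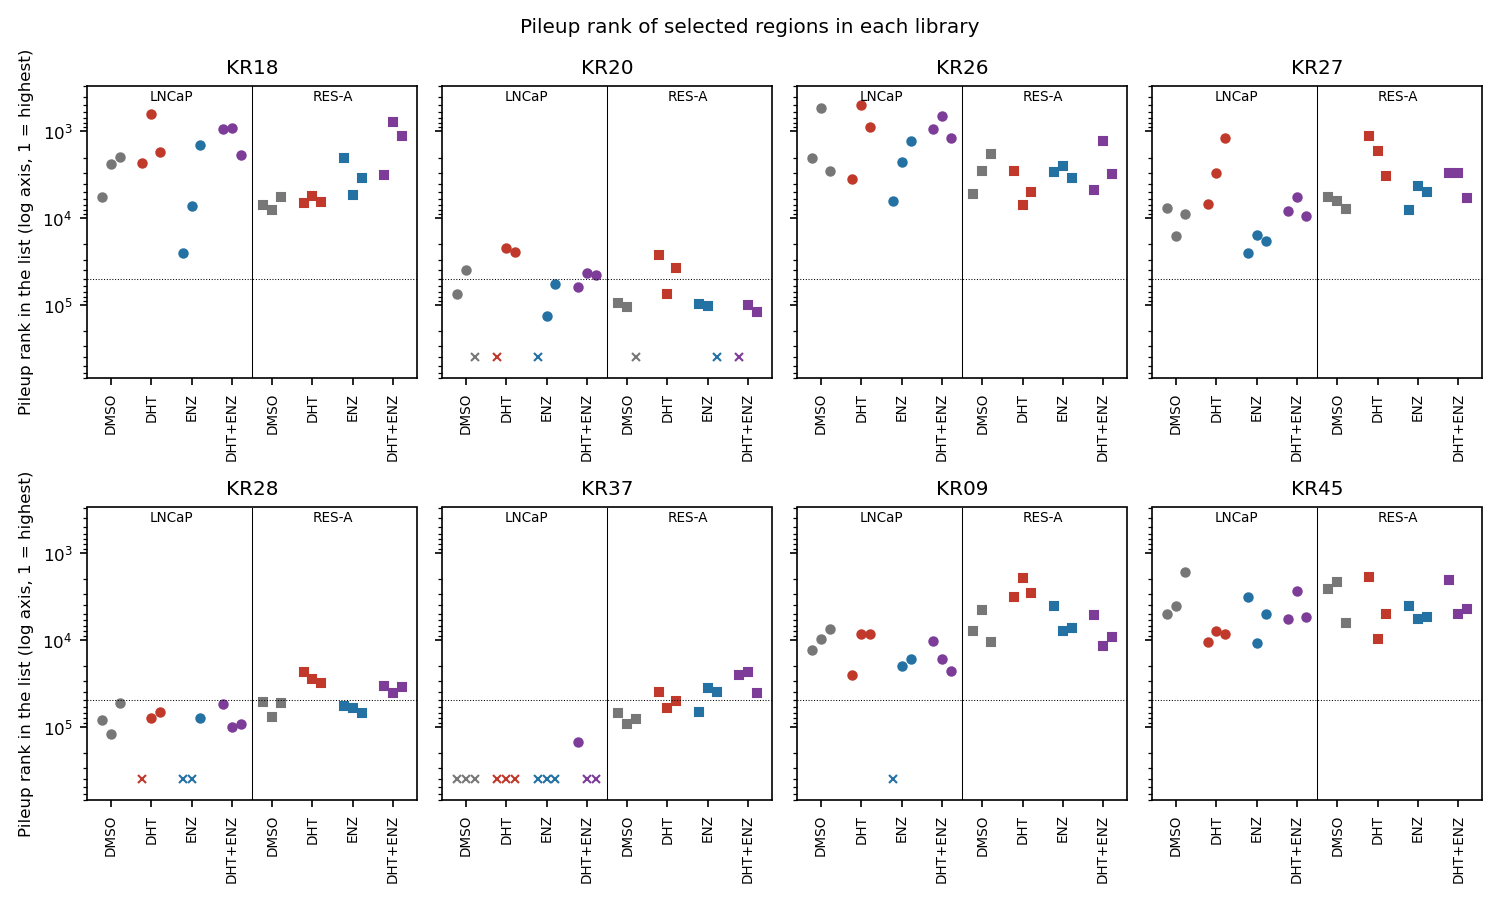
Each panel plots the pileup rank of 1 region in each of the 24 libraries on an inverted log axis (rank 1 at the top), circles for LNCaP and squares for RES-A, coloured by treatment, with crosses for libraries without a peak and a dotted line at rank 50000. The DHT libraries stand above the DMSO libraries at KR27 in both sublines and at KR28 in RES-A, and 11 of 12 LNCaP libraries have no peak at KR37.

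The other regions tested that were present in all lists were KR05, KR12, KR35, KR45 and KR47. KR05 (chr19:51307794-51308443) lay to the left of KLK1 by coordinate, and KR12 (chr19:51345266-51346028) between KLK15 and KLK3. KR35 (chr19:51392705-51393627) lay between KLK2 and KLK4, KR45 (chr19:51412419-51412998) within KLK4 and KR47 (chr19:51424762-51425848) to the right of KLK4. None of the 5 passed with DHT in either subline. KR45 in KLK4 went from ranks of 5122, 4039 and 1674 with DMSO to 10606, 7940 and 8487 with DHT in LNCaP. All 3 DHT libraries ranked it below all 3 DMSO libraries, and the difference was −1.46 (SE 0.590, limma adjusted p = 0.141). In RES-A it ranked 2582, 2188 and 6439 with DMSO and 1888, 9857 and 5000 with DHT, which overlapped.

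KR05 gave −1.23 in LNCaP (SE 0.641, limma adjusted p = 0.279) and −0.982 in RES-A (SE 0.641, limma adjusted p = 0.443) with DHT against DMSO. KR35, a broad and high peak with ranks of 626 to 8280 over all lists, gave 0.911 (SE 0.490, limma adjusted p = 0.300) and 0.212 (SE 0.490, limma adjusted p = 1). KR12 gave 0.547 and 0.703, and KR47 gave 0.958 and 0.187, with limma adjusted p-values of 0.161 to 1. With both shallow libraries left out, the LNCaP differences were 1.30 for KR12 (SE 0.412, limma adjusted p = 0.0534) and 0.315 for KR47 (SE 0.252, limma adjusted p = 0.554). Over the 12 regions tested the median difference was 0.433 in LNCaP and 0.199 in RES-A, beside a median of 0 over all 82147 regions in both, and beside −0.281 and −0.0651 over the 61 regions tested within 1 Mb of either side of the window. The sign of the window medians depended on the scale. With ranks by −log10 p they were 0.233 and −0.222, on percentiles 0 and 0.141, and on log2 fold enrichment −0.173 and −0.0253.

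The question whether ENZ offsets the effect of DHT was addressed by DHT+ENZ against DHT. In LNCaP none of the 12 regions passed in limma, where 5.28% of all regions did, and 2 had an unadjusted p under 0.05. These were KR27 (−1.41, SE 0.507, limma adjusted p = 0.138) and KR20 (−0.606, SE 0.235, limma adjusted p = 0.178), both lower with ENZ added. Without both shallow libraries KR27 gave −2.02 (SE 0.475, limma adjusted p = 0.0149), so that KR27 and KR20 both passed, where 6.31% of all regions did. In the matching comparison of DHT with DMSO, the same 2 regions passed without those libraries, where 11.1% of all regions did. Both comparisons use the same DHT libraries, and the KR20 scores are mostly 0.

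In RES-A 3 of 12 regions passed for DHT+ENZ against DHT, where 7.23% of all regions did. KR28 in KLK2 fell by 0.383 (SE 0.0938, limma adjusted p = 0.0146), to a level between those of DHT and DMSO. KR09 (chr19:51339178-51339643, between KLK15 and KLK3) fell by 1.67 (SE 0.497, limma adjusted p = 0.0489). KR37 (chr19:51399868-51400291, between KLK2 and KLK4) rose by 0.663 (SE 0.154, limma adjusted p = 0.0103). KR37, too, was within rank 50000 in only 6 libraries, all of them RES-A, and had a score of 0 in the others. KR27 gave −1.03 (SE 0.507, limma adjusted p = 0.343), with ranks of 3006, 3042 and 5836 that overlapped those with DHT. The KR28 call was lost without DHT replicate 1 or DHT+ENZ replicate 2, and the KR37 call without DHT replicate 2 or DHT+ENZ replicate 1 or 2. The KR09 call was lost in 15 of 24 cases in which 1 library was left out, 10 of them libraries outside the comparison, whose spread the fit shares.

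KR09 in RES-A ranked 7983, 4511 and 10711 with DMSO, 3256, 1938 and 2874 under DHT, 4060, 8031 and 7417 under ENZ alone, and 5228, 11876 and 9427 under DHT+ENZ. Its DHT libraries stood above all other RES-A libraries, and DHT against DMSO gave 1.47 (SE 0.497, limma adjusted p = 0.0554). The same difference passed without both shallow libraries, which are LNCaP (SE 0.383, limma adjusted p = 0.0124). In LNCaP it ranked 13125, 9796 and 7572 with DMSO and 25762, 8695 and 8487 with DHT, and the difference was −0.322 (SE 0.497, limma adjusted p = 0.892), or 0.206 without both shallow libraries (SE 0.429, limma adjusted p = 0.996). The difference between these DHT effects was 1.79 (SE 0.703, limma adjusted p = 0.163).

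Without both shallow libraries, 5 of 12 regions passed for DHT+ENZ against DHT in RES-A, where 8.71% of all regions did, although no RES-A library was removed. The added regions were KR18, given above, and KR35 (1.27, SE 0.381, limma adjusted p = 0.0481), both higher with ENZ added.

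ENZ against DMSO, the comparison without androgen, gave no call in the window. None of 12 regions passed in limma in LNCaP, where 0.142% of all regions did, and none in RES-A, where 0.296% did. An unadjusted p under 0.05 was found for 1 region in LNCaP, KR09 (−1.36, SE 0.497, limma adjusted p = 0.403), whose peak was absent from the shallow ENZ library and whose difference was −0.879 without both shallow libraries, and for none in RES-A. KR27 in LNCaP gave −0.912 (SE 0.507, limma adjusted p = 0.684), with 1 of the 3 ENZ libraries inside the range of the DMSO ranks, and in RES-A it gave 0.243 (SE 0.507, limma adjusted p = 1).

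**Figure D3:**
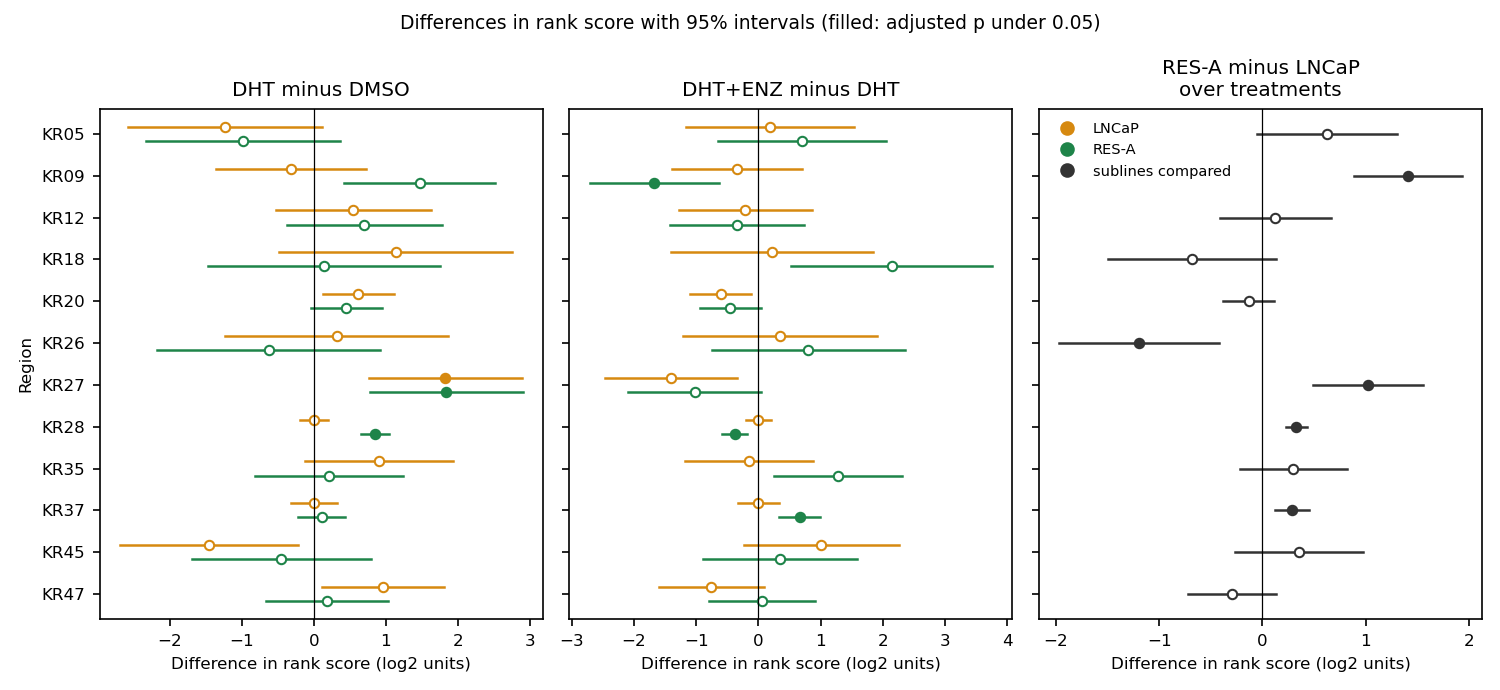
Differences in rank score (log2 units) with 95% intervals for the 12 regions tested, for DHT minus DMSO and DHT+ENZ minus DHT in each subline and for RES-A minus LNCaP over the 4 treatments, with filled points for an adjusted p under 0.05. KR27 lies at 1.83 and 1.84 in the first panel, and the intervals of KR18 and KR26 are the widest.

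More regions passed between the sublines than in any comparison of treatments, but these counts are not alike. The subline comparison set 12 libraries against 12 and each treatment comparison 3 against 3. At KR27 the SE was 0.253 in the former and 0.507 in the latter. Over the 4 treatments, 5 of 12 regions passed for RES-A against LNCaP, where 52.7% of all 82147 regions did, so the share in the window was no higher than elsewhere. RES-A was higher at KR09 (1.41, SE 0.249, limma adjusted p = 0.000115), KR27 (1.02, SE 0.253, limma adjusted p = 0.00242), KR28 (0.328, SE 0.0469, limma adjusted p = 1.18e-05) and KR37 (0.285, SE 0.0772, limma adjusted p = 0.00467). It was lower at KR26, upstream of KLK2 (−1.19, SE 0.369, limma adjusted p = 0.0114). The 2 neighbours KR26 and KR27 thus stood in opposite directions between the sublines, within 3561 bp. The calls at KR09, KR26 and KR27 were kept with each library left out in turn. KR28 and KR37 entered the test through RES-A libraries alone, since every LNCaP library had a score of 0 there. Their differences could only be positive, so these 2 calls are no further support. On fold enrichment KR26 gave 0.0548, the other direction, and did not pass.

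The median difference between sublines over the 12 regions was 0.292 (0.191 without both shallow libraries), beside −0.0542 over the 61 regions within 1 Mb on either side and −0.0129 over all regions. This window median was −0.0467 with ranks by −log10 p and −0.0445 with 500-bp tiles. It was 0.299 with a cap of 25000 and 0.395 on log2 fold enrichment, the latter beside 0.199 over all regions. In those flanks 12 regions were called higher and 4 lower in RES-A, and on the rest of the chromosome 483 were higher and 187 lower of 1746. KR18, KR20, KR05, KR12, KR35, KR45 and KR47 did not pass, with differences from −0.682 (KR18, SE 0.385, limma adjusted p = 0.143) to 0.625 (KR05, SE 0.321, limma adjusted p = 0.109). Without both shallow libraries KR18 (−1.02, SE 0.328, limma adjusted p = 0.0139) and KR20 (−0.225, SE 0.0877, limma adjusted p = 0.0379) passed as well, both lower in RES-A. The SE of KR20 rests largely on values set to 0 here too.

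Presence of a peak of any rank was compared between 12 RES-A and 12 LNCaP libraries by a two-sided Fisher's exact test, a test added after the data were seen. It called 4 of 25 regions tested in the window, where 13.8% of 309320 regions passed, so the share was close to that elsewhere. Of the 4, KR16 and KR21 entered the test through 1 subline alone, and KR37 through its RES-A peaks, with 1 LNCaP library besides. The calls of these regions restate presence there and are no further support. KR37, between KLK2 and KLK4, had a peak in 12 of 12 RES-A libraries and 1 of 12 LNCaP libraries (Fisher's exact adjusted p = 0.000299). In RES-A its pileup was 27, 26 and 33 with DMSO, 32, 22 and 37 under DHT, 26, 68 and 39 under ENZ alone, and 46, 50 and 43 under DHT+ENZ, at a fold enrichment of 5.49 to 9.78. The LNCaP peak, in DHT+ENZ replicate 1, had a pileup of 15 and ranked 149535. The RES-A libraries with DHT+ENZ ranked KR37 at 25821, 23812 and 40834, above all 3 with DMSO (69456, 92774 and 81159), and the LNCaP libraries without it included 9 with a background above 1 read per base.

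KR16 (chr19:51347600-51347886, between KLK15 and KLK3) had a peak in 8 RES-A libraries and no LNCaP library (Fisher's exact adjusted p = 0.0132). Its peaks were weak, with pileups of 21 to 42 and a fold enrichment of 2.75 to 3.95, and RES-A DHT had it in 1 of 3 libraries. KR31 (chr19:51383510-51384195, toward the 3′ end of KLK2) had a peak in all 12 RES-A libraries and 5 LNCaP libraries (Fisher's exact adjusted p = 0.0332). Without both shallow libraries the adjusted p for KR31 was 0.0506, the 1 of these calls that was lost. KR42 (chr19:51407684-51408047, between KLK2 and KLK4) was found in 9 RES-A and 2 LNCaP libraries and did not pass (Fisher's exact adjusted p = 0.0747).

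KR21 (chr19:51362199-51362451, toward the 3′ end of KLK3) was the 1 region called in the other direction, with a peak in 7 LNCaP libraries and no RES-A library (Fisher's exact adjusted p = 0.0332). It was present in all 3 LNCaP DHT+ENZ libraries, 2 of 3 with DMSO and 1 of 3 with DHT or with ENZ, at pileups of 18 to 31 and a fold enrichment of 2.76 to 4.81. The 7 libraries included none of the shallow ones, and without those the adjusted p was 0.00684. On the percentile scale 7 of 25 regions passed between the sublines, where 34.8% of all regions did, namely KR16, KR28, KR29, KR31, KR37 and KR42 higher in RES-A and KR21 lower. KR16, KR37 and KR42 entered that test through their RES-A peaks, and KR21 through its LNCaP peaks. Those calls restate presence and are no further support.

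KR29 (chr19:51382393-51382757), next to KR31 toward the 3′ end of KLK2, was low in every list that had it. Its ranks ran from 70512 to 149782 in the 12 RES-A libraries and from 96753 to 197168 in the 9 LNCaP libraries with a peak. KR49 (chr19:51433112-51433419, to the right of KLK4) was present in 22 lists and absent from the 2 shallow ones, with ranks from 55288 to 119844. Neither region passed the Fisher's exact test of presence between the sublines.

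**Figure D4:**
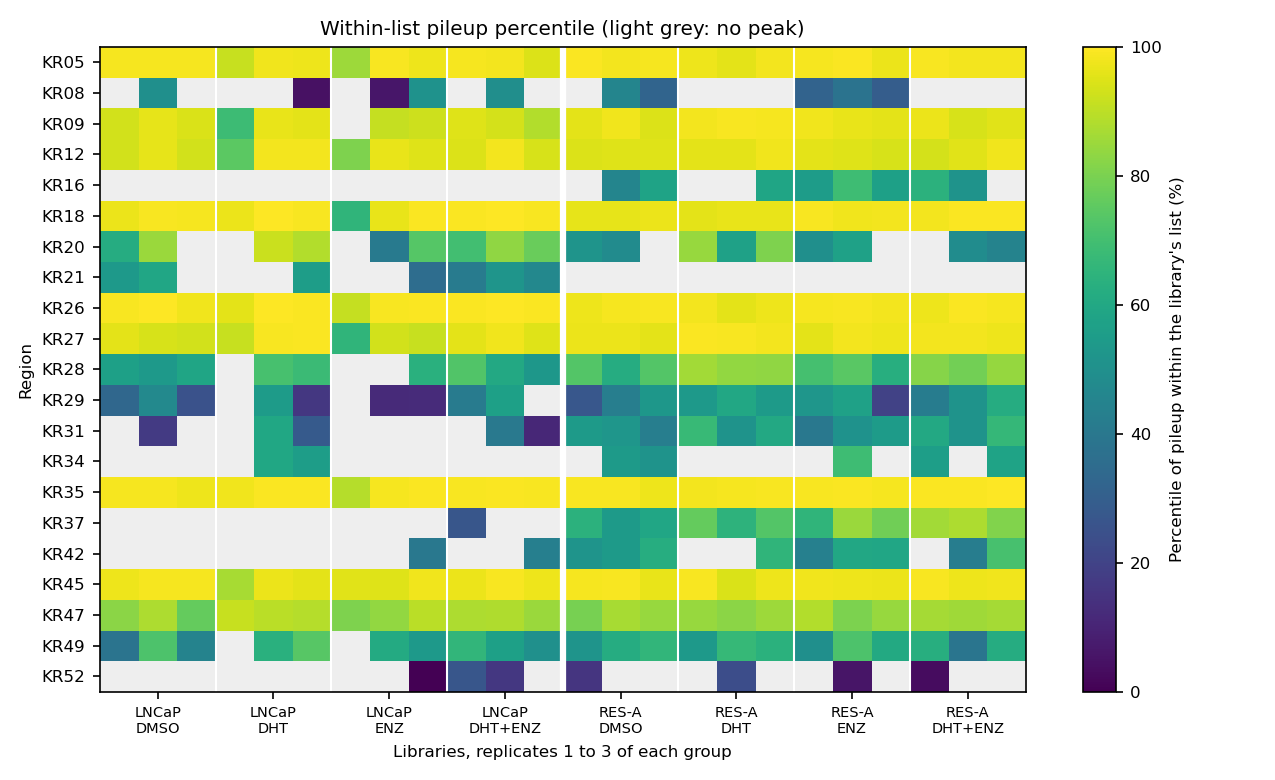
Colour gives the percentile of a region's pileup within each library's own list (100 is the highest, light grey is no peak), for regions with a peak in at least 5 libraries, with the 24 libraries in columns grouped by subline and treatment. The 8 regions present in all lists form bright bands, KR16 and KR37 are filled almost wholly in RES-A, and KR21 in LNCaP.

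The region whose DHT effect had the smallest p in either subline was KR28, and its pattern over the 24 libraries was compared with those of all tested regions outside the window. The 5 most alike by Pearson's r of the rank score were chr2:169383197-169383700 (0.986), chr10:80280601-80281135 (0.980), chr5:124820848-124821344 (0.978), chr1:21658532-21659071 (0.977) and chr13:43480421-43480780 (0.976). The 24 points share their libraries and mostly have a score of 0, and the values are a description only. Within the window, the rank scores of the enhancers KR18 and KR26 had an r of 0.690 over the 24 libraries, those of KR27 and KR28 an r of 0.623, those of KR27 and KR09 an r of 0.661, and those of KR26 and KR27 an r of −0.0740. These coefficients share libraries and subline differences, and no test was made of them.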

How the data were processed

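FAIRE-seq peak lists of 24 libraries, 3 biological replicates for each of 8 groups, were grouped as their GEO labels state. Per the labels and the study's methods, single-end reads of 50 bp were mapped by the authors on hg19 (BWA 0.7.8-r455), passed through Picard 1.118 and given to MACS2 2.1.0 library by library. The caller's options and any control are not given in the sources used here. The deposited lists give each peak's pileup (a signal in fragments, not scaled between libraries). They also give the −log10 of a p-value and a q-value, as the authors' caller wrote them with a q threshold of 0.05. The fold enrichment in the deposited lists is the authors' ratio of the pileup to the expected pileup.

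Read totals were not used here. The smallest background per library, (pileup + 1) / fold − 1, ranked libraries by depth, assuming that the caller added 1 to both terms. Peaks of all lists overlapping by at least 1 bp were merged (Python 3.11.15, pandas 2.3.3), and a region's value in a library was its peak with the highest pileup. Rank scores, log2(50000 / rank), were fitted in limma 3.58.1 (R 4.3.3) over the 8 groups without a block for all 82147 regions within rank 50000 in at least 3 libraries, with Benjamini-Hochberg adjustment over all of these in each of 8 comparisons with a threshold of 0.05. The threshold was the same for Fisher's exact test of presence. The script was tested on simulated data with known changes. Groups of 3 libraries limit the precision of every difference.

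Regions were named if they had a peak in at least 12 libraries or passed any of the 8 comparisons, and other regions were named after their values were seen. The members, motifs and lists were chosen with earlier results of these data known. Promoters came from RefSeq (GRCh38.p14), aligned with Biopython 1.88. No genome of the hg19 build was used, so no sequence was read at the peaks. Alternatives were a cap of 25000, ranks by −log10 p, percentiles over all peaks, log2 fold enrichment, a q threshold of 0.01, an overlap of 100 bp, 500-bp tiles, a filter of 6 or 1 libraries, a replicate block and leaving out each library or both shallow ones. Percentiles without both shallow libraries, and the test of presence, were added after the data were seen. Same-numbered libraries deviated together (every r over 0.1) in 1 comparison, LNCaP DHT+ENZ against DHT, at r of 0.114, 0.186 and 0.107.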

Additional observations from a re-analysis of the deposited data

Results flagged for a closer look

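The effect of DHT at KR28, the region just inside KLK2, differed between the sublines by a test of the difference itself (0.8472 in rank score, RES-A minus LNCaP, SE 0.133, limma adjusted p = 0.000470). The RES-A libraries moved from ranks of 52302, 78229 and 53682 with DMSO to 23636, 28646 and 31708 with DHT. The LNCaP libraries had a score of 0 in every case, being beyond rank 50000 or without a peak, as had the RES-A DMSO libraries, so that the SE rests largely on values set to 0. On the percentile scale, which keeps such ranks, the difference did not pass (limma adjusted p = 1). KR28 entered the rank-score test only through RES-A libraries with DHT or DHT+ENZ. The call restates their ranks within 50000 and is no further support.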

How the results depend on the processing

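The 12 differences of single regions were recomputed in 422 settings. They kept their direction and side of the threshold in 357, fell below the threshold in 63 and reversed in 2, both on log2 fold enrichment: −0.0249 for KR27 with DHT in LNCaP and 0.0548 for KR26 between the sublines. The causes were not tested. For each difference 24 of the settings left out 1 library in turn, and only 10 to 12 were other alternatives. Over those alternatives, KR09 for DHT+ENZ against DHT in RES-A was kept in 5 of 12. KR27 with DHT was kept in 7 of 12 in each subline, and KR37 between the sublines in 11 of 11. KR37 entered those tests through RES-A, where it is high, so that count is no further support. The KR28 differences counted above entered the rank-score tests in the same way. Counts of called regions in the window, which had 12 regions tested, moved as follows. For DHT against DMSO in LNCaP the count of 1 became 0 with ranks by −log10 p, percentiles (also without both shallow libraries), fold enrichment and 500-bp tiles, and 2 without both shallow libraries. In RES-A the count of 2 became 0 with ranks by −log10 p. It became 1 with percentiles (also without both shallow libraries), fold enrichment and tiles. It became 3 without both shallow libraries and with the filter of 6 libraries. The 1 call with percentiles over all libraries was KR19, and neither KR27 nor KR28 passed there. For DHT+ENZ against DHT the LNCaP count of 0 became 2 without both shallow libraries. The RES-A count of 3 became 1 with a cap of 25000, ranks by −log10 p, percentiles (also without both shallow libraries) and fold enrichment. It became 2 with tiles and with the filters of 6 or 1 libraries, and 5 without both shallow libraries. With percentiles over all libraries the 1 call was again KR19, and KR09, KR28 and KR37 did not pass. For RES-A against LNCaP the count of 5 became 3 with the cap of 25000, 4 of 11 with ranks by −log10 p, 6 of 15 with tiles, 7 of 12 without both shallow libraries, 14 of 25 on fold enrichment, 7 of 25 on percentiles and 8 of 25 on percentiles without both shallow libraries, and the presence count of 4 became 3 without them. The single call for the difference between DHT effects became 0 with the cap of 25000, ranks by −log10 p, percentiles (also without both shallow libraries) and fold enrichment. ENZ against DMSO gave 0 in every setting.

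Leaving out 1 library at a time gave 0 to 2 calls for DHT in LNCaP, 1 to 3 in RES-A, 0 to 2 for DHT+ENZ against DHT in LNCaP, 0 to 5 in RES-A, 5 to 6 between the sublines and 1 to 1 for the difference between DHT effects. The 0 in LNCaP came without DMSO replicate 2 or 3 or DHT replicate 2 or 3, both values of 2 without LNCaP DHT replicate 1, the 1 in RES-A without DMSO replicate 3 or DHT replicate 1 or 2, the 5 without LNCaP ENZ replicate 1, and the 0 for DHT+ENZ in RES-A without DHT+ENZ replicate 2, while 1 call was left there without DHT replicate 1 or 2. Of 30 same-numbered pairs from groups compared, correlations of deviations ran from −0.124 to 0.327, 5 were over 0.1 and in 17 the own number correlated best. All 3 pairs were over 0.1 for LNCaP DHT with LNCaP DHT+ENZ alone, where a replicate block left the count at 0, and the other comparisons were taken to share only a number. A replicate block gave 1, 2, 0, 2, 0, 0, 5 and 1 calls in the 8 comparisons, in the order DHT, DHT+ENZ, ENZ (LNCaP before RES-A each time), sublines and difference between DHT effects, and lost KR09 for DHT+ENZ in RES-A (limma adjusted p = 0.0655). Ranks limit what can be seen beyond 50000, and depth limits presence in the 2 shallow libraries.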
